A study of Mus musculus with 32 samples.

Results

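The first 10 Mb of assembled sequence next to the centromere were examined on each of the 19 mouse autosomes. In the mm9 build a mouse chromosome is numbered from its centromeric end and its assembled bases begin at position 3000001, so each proximal window ran from 3000000 to 13000000. The members were all intervals of the 9 deposited lists of bound or marked regions with their midpoint in such a window, which were 8240 of 122081 intervals. They comprised 557 PRDM9 intervals of RJ2, 130 of B6, 54 of Spo11 KO and 129 of Prdm9 KO, 1140 DMC1 intervals of RJ2 and 1193 of B6, and 1616 RJ2-specific, 714 B6-specific and 2707 common H3K4me3 intervals. Everything between a window and the distal end of the same chromosome was called the rest.

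Testes of 4 mouse strains were compared. RJ2 is the congenic strain B10.MOLSGR(A)-(D17Mit58-D17Jcs11)/Bdm, which carries the Cst allele of Prdm9 on a C57BL/10 background, and B6 is C57BL/6JOlaHsd, which carries the Dom2 allele. Spo11 KO mice (Spo11tm1M) carry Dom2 but form no meiotic double-strand breaks, and Prdm9 KO mice (B6;129P2-Prdm9tm1Ymat/J) lack the protein and served as the control for the antibody. PRDM9 ChIP was done on whole testes at 13 days after birth, with the testes of 10 mice pooled per ChIP, and DMC1 ChIP on whole testes at 5 weeks. H3K4me3 ChIP was done on pachytene cells elutriated from adult testes, with 1 ChIP library per strain, whereas PRDM9 ChIP in RJ2, B6 and Spo11 KO and DMC1 ChIP in both strains had 2 libraries each and Prdm9 KO had 1. The lists pool these libraries and give positions without read counts, so no spread between mice and no local depth stood behind a value. The unit that was repeated is the chromosome, and the error given below is the spread over 19 autosomes.

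PRDM9 binds DNA through a zinc finger array whose sequence preference differs between alleles, and trimethylates histone H3 on the neighbouring nucleosomes. Meiotic double-strand breaks form at a subset of these sites, and the recombinase DMC1 loads onto the resected single-stranded DNA, so that DMC1 ChIP marks where breaks were made. H3K4me3 is also found at active promoters, where it does not depend on PRDM9 and is therefore shared between strains. Crossovers in many organisms, mammals included, are kept away from centromeres, and the distance over which break formation is lowered varies.

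Common H3K4me3 lay at most of the listed genes of pachytene spermatocytes and of round spermatids alike, so these genes do not tell the stages apart. It was found on an annotated start of 8 of 10 genes of pachytene spermatocytes and 4 of 5 of round spermatids, of 1 of 6 spermatogonial genes, and of 0 of 6 Sertoli cell, 0 of 5 Leydig cell and 0 of 4 blood or endothelial genes. These counts run over the whole genome, and the share over all its genes is not given. Of 56 annotated genes in a fixed list of meiotic genes, 4 began in a proximal window, namely Hormad2 on chromosome 11, whose product sits on unsynapsed chromosome axes, Ewsr1 on chromosome 11, which encodes an RNA-binding protein, Gm960 on chromosome 19, which encodes the SPO11 partner TOPOVIBL, and Mus81 on chromosome 19, which encodes a nuclease that resolves joint molecules. All 4 starts lay under common H3K4me3, against 40.4% of all protein-coding genes that began in the windows (613 of 1518), and none of the 4 had a PRDM9 or DMC1 interval within 1 kb, against 11.9% of those genes with one (180 of 1518). With 4 genes this is a description.

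The sequences under the members are shown for both PRDM9 alleles. The 9-letter word most enriched in the central 200 bp of PRDM9 intervals with DMC1 was searched outside the proximal windows, against the same windows moved by 10 kb, and was AGGTCACAT for RJ2 and GGTGCTGCC for B6. The lines below give 120 bases of the plus strand around the word, in mm9, for 3 RJ2 and 2 B6 intronic or intergenic members, early in list order, that carried PRDM9, DMC1 and strain-specific H3K4me3 and held the word with at most 1 mismatch on either strand, and for the first such DMC1 member per strain that had no other mark. Capitals mark the word or its reverse complement, and each printed match had 1 mismatch.
RJ2 PRDM9 site 1, chr1:12874395-12874514: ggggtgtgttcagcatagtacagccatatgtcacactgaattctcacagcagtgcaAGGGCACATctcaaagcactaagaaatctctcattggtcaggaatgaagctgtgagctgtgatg
RJ2 PRDM9 site 2, chr8:9311810-9311929: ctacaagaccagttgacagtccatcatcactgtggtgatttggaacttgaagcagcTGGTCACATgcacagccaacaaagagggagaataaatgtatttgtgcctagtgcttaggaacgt
RJ2 PRDM9 site 3, chr14:9874969-9875088: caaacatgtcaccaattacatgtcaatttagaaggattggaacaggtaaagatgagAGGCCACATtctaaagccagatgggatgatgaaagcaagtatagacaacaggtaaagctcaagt
B6 PRDM9 site 1, chr17:9463865-9463984: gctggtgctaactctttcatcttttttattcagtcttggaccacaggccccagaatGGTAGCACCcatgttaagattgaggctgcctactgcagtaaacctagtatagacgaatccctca
B6 PRDM9 site 2, chr8:3320499-3320618: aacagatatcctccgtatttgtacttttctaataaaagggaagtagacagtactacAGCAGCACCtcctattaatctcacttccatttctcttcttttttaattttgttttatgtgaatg
RJ2 DMC1 site, chr10:9623140-9623259: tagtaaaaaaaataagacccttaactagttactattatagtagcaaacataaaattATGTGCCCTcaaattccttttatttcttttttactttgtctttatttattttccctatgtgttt
B6 DMC1 site, chr1:4267068-4267187: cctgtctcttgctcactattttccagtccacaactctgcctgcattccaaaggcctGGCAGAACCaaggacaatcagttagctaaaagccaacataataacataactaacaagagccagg
RJ2 site 1 lay in an intron of Slco5a1 and RJ2 site 2 in an intron of Fam155a, and the other sites were intergenic.

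Proximal members held their own allele's word about as often as sites elsewhere. In RJ2, AGGTCACAT was found in 16.9% of proximal PRDM9 intervals with DMC1 or strain-specific H3K4me3 (71 of 420, 95% Clopper-Pearson interval 13.4 to 20.8), against 15.6% in the rest (1042 of 6681), and in 5.00% and 6.33% of the same windows moved by 10 kb. In B6, GGTGCTGCC was found in 31.1% of such proximal intervals (28 of 90, 21.8 to 41.7), against 28.0% in the rest (490 of 1750), and in 2.22% and 4.29% of the moved windows. Each word was also counted in the sites of the other strain. GGTGCTGCC occurred in 4.05% of the proximal RJ2 sites (17 of 420) and in 3.81% of their moved windows, and AGGTCACAT in 10% of the proximal B6 sites (9 of 90, 4.68 to 18.1, an interval that holds the RJ2 share) and in 4.44% of theirs. Proximal DMC1 intervals without any other mark also held the word above the moved windows, with 14.3% (33 of 231) against 7.79% in RJ2 and 14.2% (113 of 797) against 4.39% in B6. In the rest those shares were 11.98% in RJ2 and 15.2% in B6. The words were chosen on the rest, so its shares are a description, and no test was made.

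PRDM9 intervals were sparser next to centromeres, whereas DMC1 intervals were not. RJ2 had 2.93 PRDM9 intervals per Mb in the proximal windows, against 4.23 per Mb in the rest, a ratio of 0.694. B6 had 0.684 per Mb in the proximal windows and 1.09 in the rest, a ratio of 0.629, and Spo11 KO had 0.284 and 0.441 per Mb, a ratio of 0.644. DMC1 intervals stood at 6.00 per Mb in the proximal windows and 5.90 in the rest in RJ2, a ratio of 1.02, and at 6.28 and 5.72 per Mb in B6, a ratio of 1.097.

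The difference was seen on most chromosomes. Averaged over chromosomes, the RJ2 PRDM9 density was 2.93 ± 1.24 per Mb proximally and 4.26 ± 0.66 per Mb in the rest (SD over 19 autosomes), and the proximal window was the lower one on 17 of 19 (mean difference -1.33 per Mb, adjusted p = 0.00234, two-sided paired permutation test with random sign flips over chromosomes, Benjamini-Hochberg over the 9 lists). For B6 PRDM9 the means were 0.684 ± 0.443 and 1.08 ± 0.14 per Mb, lower on 15 of 19 (-0.39 per Mb, adjusted p = 0.00684, same permutation test). For Spo11 KO the proximal window was lower on 15 of 19 (-0.15 per Mb, adjusted p = 0.0225, same permutation test). The DMC1 differences were smaller than the spread over chromosomes, with +0.063 ± 1.58 per Mb in RJ2, higher on 9 of 19 (adjusted p = 0.863), and +0.50 ± 1.55 per Mb in B6, higher on 13 of 19 (adjusted p = 0.196, same permutation test). The SD of the PRDM9 difference was 1.21 per Mb in RJ2, 0.458 in B6 and 0.221 in Spo11 KO. Of the PRDM9 differences, only that of RJ2 was thus larger than its spread over chromosomes. The ranges of proximal and rest densities overlapped for every list.

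The antibody control moved in the same direction. Its peaks were called by the authors at a more relaxed p-value than those of B6 and RJ2, so its density cannot be set beside theirs. The Prdm9 KO list, which holds regions recovered without the protein, had 0.679 intervals per Mb proximally and 0.965 in the rest, a ratio of 0.704, and was lower on 14 of 19 chromosomes (adjusted p = 0.0249, same permutation test). Without chromosome 5 its adjusted p was 0.050, which missed the threshold of 0.05. The methods state that PRDM9 peaks meeting Prdm9 KO peaks were taken out, yet 252 of 10121 RJ2 intervals met the list, 14 of 557 in the proximal windows (2.51%), against 2.53% in the rest. What part of the lower PRDM9 density goes with it was not tested.

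H3K4me3 was also somewhat sparser. RJ2-specific H3K4me3 had 8.51 intervals per Mb proximally and 9.78 in the rest, and was lower on 14 of 19 chromosomes (adjusted p = 0.00684, permutation test). B6-specific H3K4me3 had 3.76 and 4.34 per Mb and common H3K4me3 14.2 and 16.6 per Mb, and neither passed the same permutation test (adjusted p = 0.148 and 0.114). Common H3K4me3 was lower on 17 of 19 chromosomes. Chromosomes 16 and 19 went the other way, with 17.8 and 34.4 intervals per Mb in their windows, against 15.3 and 16.0 in the rest. Without chromosome 19 the difference of common H3K4me3 was -3.62 per Mb (adjusted p = 0.000315, permutation test), and without chromosome 17 that of B6-specific H3K4me3 was -0.81 per Mb (adjusted p = 0.0310, permutation test).

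**Figure D1:**
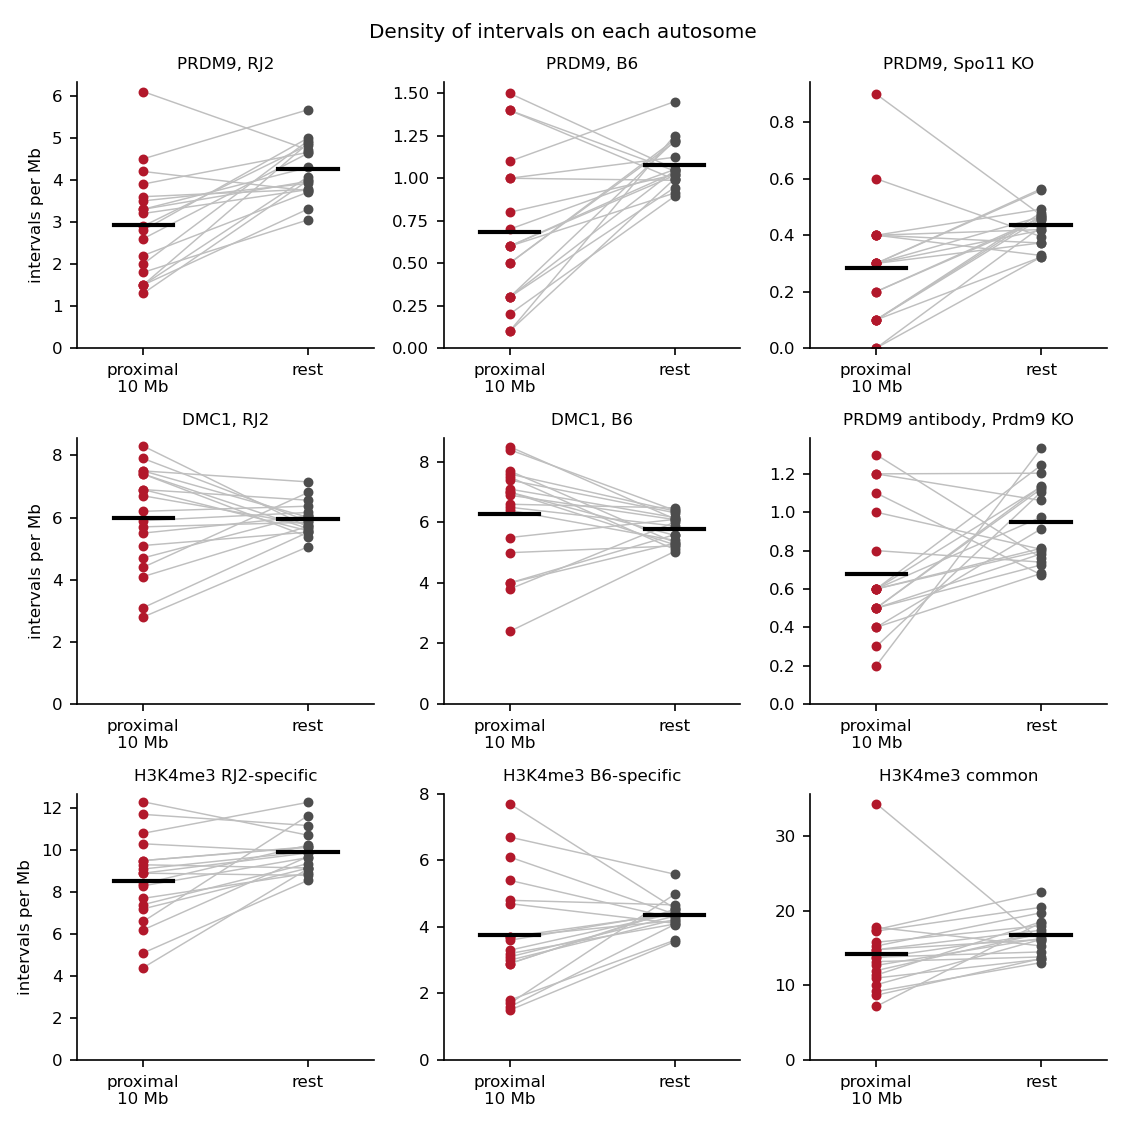
Intervals per Mb on each of the 19 autosomes in the proximal 10 Mb (left, red) and in the rest of the chromosome (right, grey), 1 panel per list, with grey lines joining the same chromosome and black bars at the mean over chromosomes. PRDM9 points of RJ2, B6 and Spo11 KO sit lower in the proximal window on 17, 15 and 15 of 19 chromosomes, while DMC1 points spread to both sides.

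The windows were not alike. Chromosome 19 had the densest RJ2 PRDM9 window, with 61 intervals or 6.10 per Mb, chromosome 16 the densest B6 PRDM9 window with 15 intervals and the densest RJ2 DMC1 window with 83, and chromosome 2 the densest B6 DMC1 window with 85. Chromosome 7 was lowest for RJ2 PRDM9 with 13 intervals, for RJ2 DMC1 with 28 and for B6 DMC1 with 24, and shared the lowest B6 PRDM9 count of 1 with chromosome 9. The rest of chromosome 7 had 3.98 RJ2 PRDM9 and 5.06 RJ2 DMC1 intervals per Mb. Across the 19 windows the RJ2 PRDM9 and RJ2 DMC1 counts ranked alike (Spearman's rho 0.81, across windows of the same chromosomes), as did those of RJ2 and B6 PRDM9 (rho 0.79), and RJ2 PRDM9 ranked with the GC content of the window (rho 0.73). These are descriptions, since windows share base composition and mappability.

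PRDM9 intervals were sparser proximally also among steps of like base composition. The proximal windows had 41.5% GC and 8.05 protein-coding genes per Mb, against 42.0% and 8.94 in the rest, with GC lower on 12 and gene density lower on 15 of 19 chromosomes. The window of chromosome 19 was far from the others, with 32 such genes per Mb, against 8.36 in the rest of that chromosome. When 100-kb steps were sorted into 5 GC groups, RJ2 PRDM9 was lower proximally in each group, from 1.23 against 1.68 per Mb in the lowest to 6.88 against 8.71 per Mb in the highest. B6 PRDM9 was likewise lower in each, from 0.377 against 0.584 per Mb to 1.22 against 1.71 per Mb. Within these groups and chromosomes the mean difference was -0.81 per Mb for RJ2 and -0.34 per Mb for B6 (adjusted p = 0.00279 and 0.00765, permutation test). Without GC groups it was -1.33 per Mb for RJ2 and -0.39 per Mb for B6, so both were smaller within groups, that of RJ2 the more so. B6 DMC1 in the highest GC group had 9.45 intervals per Mb proximally and 6.61 in the rest.

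The lower PRDM9 density extended past the first 10 Mb. In the next 10 Mb, from 13 to 23 Mb, RJ2 had 3.06 PRDM9 intervals per Mb and B6 had 0.679, close to the 2.93 and 0.684 of the proximal windows, and from 23 to 33 Mb RJ2 had 4.51 and B6 had 1.14 per Mb. Set against the adjoining 10 Mb alone, the proximal difference was -0.13 per Mb in RJ2 and +0.0053 per Mb in B6 (adjusted p = 0.800 and 1, permutation test). DMC1 stood at 6.00, 5.24 and 6.51 per Mb in RJ2 and 6.28, 5.27 and 6.31 per Mb in B6 over the same 3 windows, so that its lowest density lay between 13 and 23 Mb. In the distal 10 Mb of the chromosomes RJ2 had 5.33 PRDM9 and 6.94 DMC1 intervals per Mb and B6 had 1.08 and 6.90. Among the consecutive 10-Mb windows of a chromosome, the proximal one held the lowest or tied lowest PRDM9 count on 4 of 19 chromosomes in RJ2 and on 7 of 19 in B6. For DMC1 it did so on 4 of 19 in RJ2 and 1 of 19 in B6, and for Spo11 KO and Prdm9 KO on 6 and 3. In RJ2 this count therefore does not set PRDM9 apart from DMC1.

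**Figure D2:**
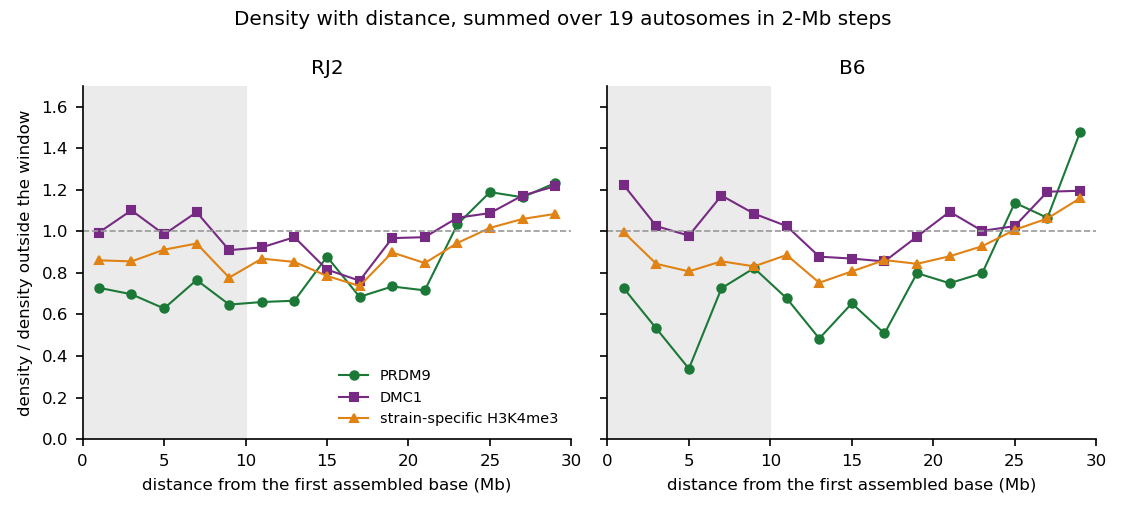
Density of PRDM9 (circles), DMC1 (squares) and strain-specific H3K4me3 (triangles) in 2-Mb steps summed over 19 autosomes, divided by the density of the same list outside the proximal 10 Mb, against distance from the first assembled base in Mb, with RJ2 left, B6 right and the proximal window shaded. PRDM9 stays under the dashed line at 1 through the shaded window and beyond it in both strains, while DMC1 runs near or above it inside the window.

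With fewer PRDM9 and as many DMC1 intervals, the ratio of the counts shifted. There were 2.05 DMC1 intervals per PRDM9 interval in the proximal windows and 1.396 in the rest in RJ2, higher on 18 of 19 chromosomes, and 9.18 and 5.26 in B6, higher on 17 of 19. Strain-specific H3K4me3 intervals per DMC1 interval stood at 1.42 proximally and 1.66 in the rest in RJ2 and at 0.598 and 0.758 in B6. These ratios follow from the densities and were not tested on their own.

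DMC1 intervals in the proximal windows overlapped the other marks less often than those in the rest in both strains. An overlap was counted when the central 400 bp of a DMC1 interval met an interval of the same strain. In RJ2, 36.1% of proximal DMC1 intervals had a PRDM9 interval (411 of 1140, 95% Clopper-Pearson interval 33.3 to 38.9), against 47.9% in the rest (6287 of 13133). In B6, 7.46% had one (89 of 1193, 6.03 to 9.10), against 13.6% in the rest (1727 of 12735). Strain-specific H3K4me3 was found at 75.8% of proximal RJ2 DMC1 intervals (864 of 1140), against 83.7%, and at 29.1% of proximal B6 intervals (347 of 1193), against 42.5%. These intervals cover counting error only. The same 411 RJ2 and 89 B6 overlaps are counted again from the PRDM9 side further below. With fewer PRDM9 and as many DMC1 intervals, the share with PRDM9 falls unless more of the PRDM9 intervals meet DMC1. The tests of that share are therefore not independent of those of the densities.

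The share of DMC1 intervals with PRDM9 was lower proximally on every one of the 19 chromosomes in RJ2. By chromosome it had a lowest value of 29.3% (chromosome 2), a median of 35.1% and a highest of 44.9% (chromosome 13) in the proximal windows, against 41.4%, 49.1% and 53.6% in the rest, so that the ranges overlapped only between 41.4% and 44.9%. The difference weighted over chromosomes was -11.96 percentage points (p = 1e-05, the smallest that 100000 sign flips can give, adjusted p = 4e-05, permutation test over 19 chromosomes, Benjamini-Hochberg over 8 shares). In B6 the proximal share had a lowest value of 0% (chromosomes 3 and 7), a median of 7.25% and a highest of 15.5% (chromosome 16), against 9.40%, 13.0% and 17.1% in the rest, and was lower on 17 of 19 (-6.01 points, adjusted p = 8e-05, same permutation test).

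Strain-specific H3K4me3 at DMC1 intervals was lower as well. In RJ2 it was lower proximally on 17 of 19 chromosomes (-8.32 points, adjusted p = 0.00012, permutation test), with proximal values from 65.2% on chromosome 19 to 86.3% on chromosome 1. In B6 it was lower on 16 of 19 (-13.4 points, adjusted p = 0.00028, permutation test), with proximal values from 8.33% on chromosome 7 to 48.1% on chromosome 17. Common H3K4me3 lay at 3.16% of proximal and 3.396% of other DMC1 intervals in RJ2 and at 3.52% and 3.78% in B6, and passed the permutation test in neither strain (adjusted p = 0.671 and 0.680). DMC1 intervals with no other mark made up 20.3% of the proximal ones (231 of 1140), against 11.6% in RJ2, higher on 19 of 19 (adjusted p = 4e-05), and 66.8% (797 of 1193), against 52.8% in B6, higher on 16 of 19 (adjusted p = 0.00028, permutation test).

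**Figure D3:**
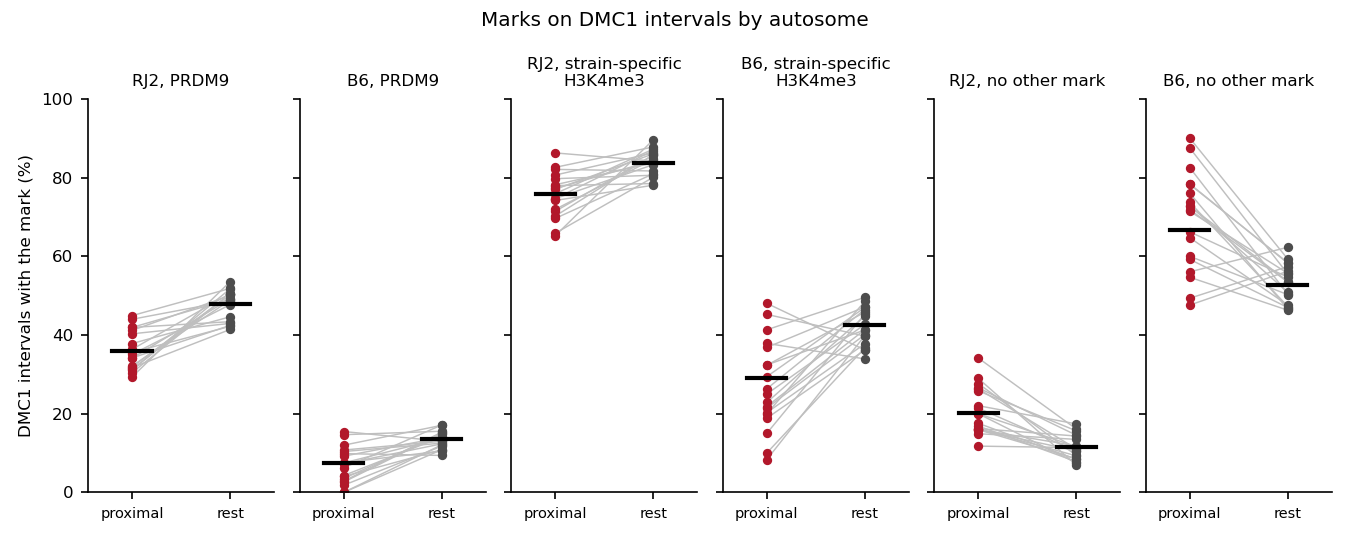
Percent of DMC1 intervals that overlap PRDM9, strain-specific H3K4me3 or no other mark, on each of the 19 autosomes in the proximal 10 Mb (red) and the rest (grey), with lines joining a chromosome and black bars at the percent over all intervals. No other mark means no PRDM9 or specific H3K4me3 interval of the same strain and no common H3K4me3. The RJ2 share with PRDM9 is lower and the RJ2 share without other marks is higher proximally on all 19 chromosomes.

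Width was looked at because wide DMC1 intervals carried other marks more often everywhere. Proximal DMC1 intervals had a median width of 1690 bp in RJ2, against 1698 bp in the rest, and of 1690 bp in B6, against 1754 bp, and the B6 difference was present on 18 of 19 chromosomes (mean difference -52.8 bp, adjusted p = 0.00011, permutation test over 11 measures of width and place). B6 PRDM9 intervals were also narrower proximally, with a median of 449.5 bp against 477 bp (mean difference -50.2 bp, narrower on 15 of 19, adjusted p = 0.00423, permutation test). RJ2 PRDM9 intervals had medians of 542 and 556 bp, and their mean difference of -3.33 bp did not pass (adjusted p = 0.880, same permutation test). When DMC1 intervals were compared only within 5 groups of like width, the share with PRDM9 was lower proximally in each group of both strains. In the narrowest group it was 12.5% (32 of 255) against 21.2% in RJ2 and 1.08% (3 of 277) against 2.62% in B6, and in the widest 60.2% (139 of 231) against 67.8% in RJ2 and 26.8% (45 of 168) against 35.4% in B6. Within width groups the difference was -10.8 points in RJ2 and -3.61 points in B6 (adjusted p = 4e-05 and 0.00683, permutation test), and the B6 value was smaller than the -6.01 points over all widths. Within 5 GC groups it was -10.8 and -5.49 points.

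**Figure D4:**
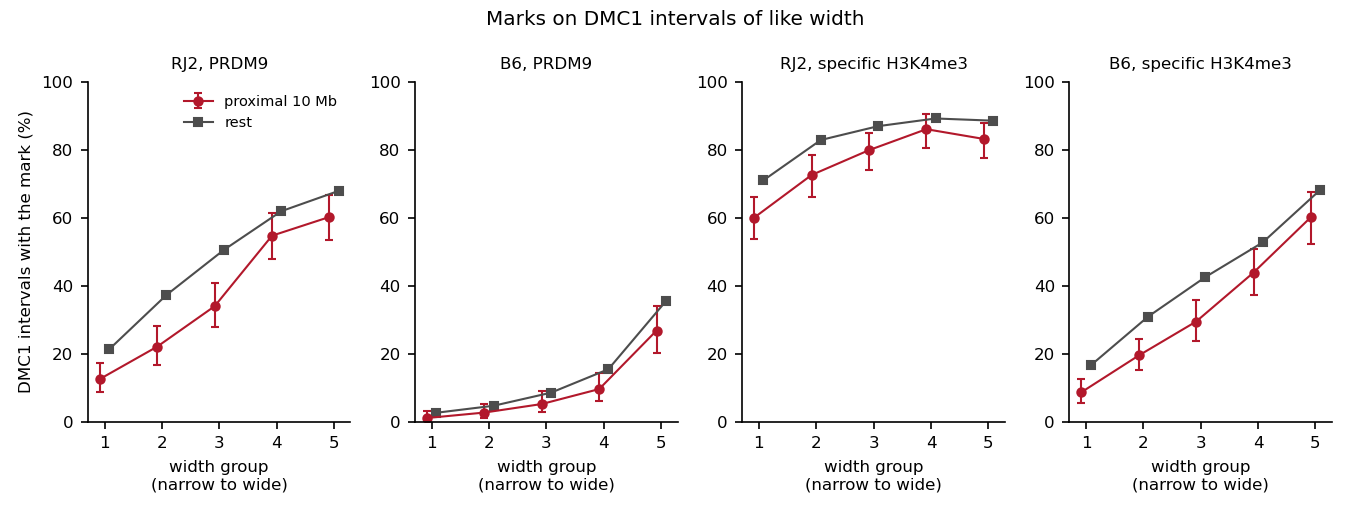
Percent of DMC1 intervals with PRDM9 or strain-specific H3K4me3 in 5 groups of interval width from narrow to wide, for the proximal 10 Mb (red circles, bars are 95% Clopper-Pearson intervals) and the rest (grey squares). The red points lie under the grey ones in all 20 pairs, and both rise with width, except that RJ2 H3K4me3 levels off in the widest groups.

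In 2-Mb steps the shares varied, and no trend was tested. In RJ2 it was 35.4% from 3 to 5 Mb, 38.7% from 11 to 13 Mb and 42.5% from 13 to 15 Mb, and in B6 4.89%, 11.02% and 9.42% over the same steps, with 7.53% from 19 to 21 Mb. Strain-specific H3K4me3 was found at 67.7% of RJ2 and 24.8% of B6 DMC1 intervals from 3 to 5 Mb, against 78.4% and 34.7% from 11 to 13 Mb, and at 29.4% of B6 intervals from 23 to 25 Mb. The distal 10 Mb of the chromosomes, which belong to the rest, were low in B6 as well, with PRDM9 at 9.15% and strain-specific H3K4me3 at 31.3% of DMC1 intervals, so that low shares in B6 were not limited to the centromeric end. In RJ2 the distal shares were 47.0% and 82.7%. Against the adjoining 13 to 23 Mb alone the RJ2 share with PRDM9 and the B6 share with H3K4me3 still passed (-7.21 and -9.46 points, both adjusted p = 0.0163, permutation test), while the B6 share with PRDM9 and the RJ2 share with H3K4me3 did not (-2.54 and -5.08 points, both adjusted p = 0.149).

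Seen from the PRDM9 intervals, no share with DMC1 or without marks passed the test between proximal windows and the rest. DMC1 was found at 73.8% of proximal RJ2 PRDM9 intervals (411 of 557, 69.9 to 77.4), against 66.9% in the rest (adjusted p = 0.836, permutation test over 18 shares), and at 68.5% of proximal B6 PRDM9 intervals (89 of 130, 59.7 to 76.3), against 71.4% (adjusted p = 0.974). Chromosome 19 decided the RJ2 value, with DMC1 at 21 of its 61 proximal PRDM9 intervals (34.4%), against 70.2% in the rest of that chromosome. Without chromosome 19 the RJ2 difference was +11.9 points (adjusted p = 0.0211, permutation test). Spo11 KO PRDM9 intervals overlapped B6 DMC1 at 49 of 54 proximal sites (90.7%) and at 92.1% in the rest.

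PRDM9 intervals were then sorted by mark. Those with DMC1 and strain-specific H3K4me3, the signs of an active hotspot, numbered 385 of 557 proximal intervals in RJ2 (69.1%), against 62.6% in the rest, and 81 of 130 in B6 (62.3%), against 63.4%. Intervals under common H3K4me3 without DMC1, largely promoters, numbered 26 in RJ2 (4.67%), against 4.34%, and 20 in B6 (15.4%), against 17.8%. Intervals with none of the marks numbered 111 in RJ2 (19.9%), against 24.6%, and 20 in B6 (15.4%), against 9.84%, and neither passed (both adjusted p = 0.836, permutation test). In RJ2, 29 of the 111 lay on chromosome 19, which is 47.5% of its 61, and without chromosome 19 the share without marks was 8.29 points lower in the proximal windows than in the rest (adjusted p = 0.0211, permutation test). Per Mb, unmarked RJ2 intervals stood at 0.584 proximally and 1.04 in the rest, a ratio of 0.561.

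Some PRDM9 members lay at promoters. Of the 26 RJ2 intervals under common H3K4me3 without DMC1, 19 had their centre within 1 kb of an annotated start, and in B6 17 of 20 did. The first 5 of RJ2 in list order were chr19:5912861-5913548 beside Dpf2, a subunit of BAF chromatin remodelling complexes, chr7:3581235-3581737 at Tfpt and the splicing factor gene Prpf31, chr2:10296178-10297014 beside Gm13261 in an intron of Sfmbt2, which encodes a Polycomb-related protein, chr15:12251777-12252211 in an intron of Golph3, which encodes a Golgi protein, and chr13:12612134-12612932 in a UTR of Edaradd, an adaptor of ectodysplasin signalling. The first 5 of B6 were chr2:3249769-3250620 beside Rpp38, a subunit of RNase P, chr13:3610215-3611026 beside BC016423, chr13:3536915-3537401 beside Gdi2, a regulator of Rab GTPases, chr12:9036655-9037390 in an intron of Ttc32, and chr7:3596611-3597209 in an exon of Cnot3, a subunit of the CCR4-NOT deadenylase. The RJ2 interval at Tfpt also met an interval of the Prdm9 KO list, as did one at Polm, a DNA polymerase gene (chr11:5737489-5737946), which was named after its values were seen, as was Ehd1 below. The Rpp38 interval met a B6 DMC1 interval, chr2:3247831-3250048, outside its central 400 bp. Ehd1 had an interval in both strains, chr19:6276997-6277352 in RJ2 and chr19:6276156-6276725 in B6, which did not overlap. Overall 10.1% of proximal RJ2 PRDM9 intervals (56 of 557) and 16.9% of B6 ones (22 of 130) lay within 1 kb of a start, against 9.53% and 20.4% in the rest.

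The lists hold no scores, so single members are described by position, width and overlap, and no source used here says what the order of a list means. The first RJ2 member in list order with DMC1 and strain-specific H3K4me3, chr19:6376214-6377706, was 1493 bp wide and lay in Sf1, a splicing factor gene, under a DMC1 interval of 2002 bp and an RJ2-specific H3K4me3 interval of 2135 bp. The first such B6 member, chr12:3513081-3513883, was 803 bp wide and lay 19721 bp from the nearest coding start, that of Asxl2, a Polycomb-associated gene, and it met a Spo11 KO interval of 933 bp. The first unmarked B6 member, chr19:3767857-3768208, lay at the start of Suv420h1, which encodes a histone H4 lysine methyltransferase, and met an RJ2-specific H3K4me3 interval. The widest DMC1 member of RJ2, chr1:10159695-10163972, spanned 4278 bp in an intron of Arfgef1 and held 2 RJ2 PRDM9 and 2 RJ2-specific H3K4me3 intervals. The widest of B6, chr16:4519052-4522523, spanned 3472 bp in an intron of Srl and had no PRDM9 or H3K4me3 interval of B6. It met an RJ2 DMC1 interval of 1958 bp and an RJ2-specific H3K4me3 interval of 645 bp. The DMC1 member of B6 nearest the chromosome start, chr18:3005029-3006610, also met an RJ2 DMC1 interval, of 1540 bp. Over all proximal members 34 of 1193 B6 DMC1 intervals met an RJ2 one (2.85%), against 2.78% in the rest.

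The widest common H3K4me3 members were broad domains over genes. They were chr2:3331723-3342962 in Meig1, a gene needed for sperm formation, with 11240 bp, chr9:7826471-7837014 in Birc2, an inhibitor of apoptosis, with 10544 bp, chr11:11382946-11393327 in 4930415F15Rik with 10382 bp, chr16:4833642-4843950 in 4930562C15Rik with 10309 bp, and chr1:9731828-9741383 in Vcpip1 with 9556 bp. The Meig1 domain contained an RJ2 DMC1 interval of 1688 bp and the 4930415F15Rik domain a B6 DMC1 interval of 2042 bp. Of common H3K4me3 members 35.6% lay within 1 kb of a start (963 of 2707), against 33.4% in the rest.

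Members at the edge of the assembled sequence were unevenly spread over chromosomes. In the first 100 kb there were 7 RJ2 PRDM9, 3 Spo11 KO PRDM9, 0 B6 and 0 Prdm9 KO intervals over all 19 autosomes, and all 10 lay on chromosome 11. RJ2 had 5 DMC1 intervals there, 3 of them on chromosome 11, and 9 of the 16 RJ2-specific H3K4me3 intervals lay on chromosome 9. There were also 5 B6 DMC1, 4 B6-specific and 23 common H3K4me3 intervals, with the most common H3K4me3 on chromosome 14. The RJ2 DMC1 interval nearest to a chromosome start, chr11:2999508-3000925, reached 493 bp into the unassembled run. It met the RJ2 PRDM9 interval chr11:3000054-3000567 and the Spo11 KO interval chr11:3000137-3000549. The central 120 bases of this interval and of the first unmarked RJ2 PRDM9 member are printed because neither held the RJ2 word and the unmarked one repeats a short unit.
RJ2 PRDM9 site without a mark, chr16:3660272-3660391: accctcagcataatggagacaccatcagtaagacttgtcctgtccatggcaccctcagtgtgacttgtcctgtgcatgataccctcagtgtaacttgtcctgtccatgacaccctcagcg
RJ2 DMC1 site nearest the assembled start, chr11:3000157-3000276: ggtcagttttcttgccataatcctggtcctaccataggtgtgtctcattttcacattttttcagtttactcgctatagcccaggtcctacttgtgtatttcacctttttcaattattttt
With windows that began at 3.1 Mb the PRDM9 density differences were -1.33 per Mb in RJ2, -0.16 per Mb in Spo11 KO and -0.39 per Mb in B6, and all 3 still passed.

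Most Spo11 KO members were sites also called in B6. Of 54 Spo11 KO members 47 met a B6 PRDM9 interval (87.0%, 75.1 to 94.6), against 86.3% in the rest, and 36.2% of B6 members met a Spo11 KO interval (47 of 130), against 35.0% (adjusted p = 0.974, permutation test). Of the 7 without a B6 interval, 3 lay in the first 100 kb of chromosome 11, at chr11:3000137-3000549, chr11:3001085-3002438 and chr11:3087354-3087620, and 2 of the 3 met an RJ2 PRDM9 interval. No Spo11 KO member lay under common H3K4me3 (0 of 54, an upper 95% limit of 6.60%), against 3.36% in the rest. The permutation test gave an adjusted p of 0.00054 for that share, but a value of 0 in every window fixes the sign on each chromosome, and the limit covers the share of the rest, so it is not read as a difference.

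The strains differed in how far the share with PRDM9 fell, depending on the scale, and not in that with strain-specific H3K4me3 by the test. The share of DMC1 intervals with PRDM9 fell by 11.96 points in RJ2 and by 6.01 points in B6, and the RJ2 minus B6 contrast of -5.95 points passed (adjusted p = 0.0379, permutation test over 19 chromosomes, Benjamini-Hochberg over 14 contrasts). As a ratio of proximal to rest the same shares stood at 0.753 in RJ2 and 0.550 in B6, so that the larger drop belonged to B6 on that scale, which was not tested. The share of DMC1 intervals with strain-specific H3K4me3 fell by 8.32 points in RJ2 and by 13.4 points in B6. That contrast of +5.05 points ran the other way and did not pass (adjusted p = 0.243, same permutation test). Strain-specific H3K4me3 members carried DMC1 at 54.5% in RJ2 (880 of 1616), against 51.4% in the rest, and at 49.0% in B6 (350 of 714), against 56.9%, and the contrast of +10.4 points passed (adjusted p = 0.0379, same permutation test). The call on the contrast of DMC1 with PRDM9 was lost when 15 of the 19 chromosomes were left out one at a time. That on the contrast of H3K4me3 members with DMC1 was lost for 16 of 19. The adjusted p rose up to 0.0854 and 0.0790 (same permutation test). Relative density was the density of a window divided by that of its whole chromosome, window included. Its mean over chromosomes was 0.6996 in RJ2 and 0.643 in B6 for PRDM9, and 1.003 and 1.07 for DMC1. Neither mark passed the same permutation test between strains (adjusted p = 0.447 and 0.318). RJ2-specific H3K4me3 members met PRDM9 at 24.6%, against 29.2% in the rest, lower on 16 of 19 chromosomes (adjusted p = 0.0111), and B6-specific ones at 11.6%, against 16.4% (adjusted p = 0.112, same permutation test).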

How the data were processed

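PRDM9, DMC1 and H3K4me3 ChIP-seq of mouse testis were analysed as 9 deposited interval lists in mm9. The authors aligned PRDM9 reads with Bowtie2, DMC1 reads with a modified BWA and H3K4me3 reads with Bowtie, called peaks with MACS on uniquely mapped reads, kept PRDM9 and DMC1 peaks reproducible between replicates, and per their methods removed PRDM9 peaks found in Prdm9 KO or shared between strains, although 252 RJ2, 13 Spo11 KO and 2 B6 intervals of the deposited lists met the Prdm9 KO list. The deposited lists hold positions without counts, so local depth is unknown and unassembled or unmappable sequence cannot be told apart from unbound. The paper lists reads per library, and read length differed between the PRDM9, Prdm9 KO, DMC1 and H3K4me3 libraries. What part this has in the comparisons between lists was not tested. Of 32 libraries, 22 lie behind the lists, and 10 of H3K36me3 were not used here. A midpoint placed an interval in a window. A DMC1 overlap was any base of its central 400 bp, and H3K4me3 counted at a PRDM9 interval when it covered 10% of a PRDM9 interval. Proximal and rest values were compared per chromosome by two-sided paired permutation tests (100000 sign flips, numpy 2.4.6), which treat the 19 autosomes as replicates and not mice, with Benjamini-Hochberg adjustment within each family and a threshold of 0.05. Shares were weighted by interval number per chromosome. Genes came from GENCODE vM1 on NCBIM37, the same assembly as mm9. Named sites were the first in list order per class, the widest, the nearest to a chromosome start and the first 5 promoter members per strain in list order. The printed sequences added the condition of holding the word. The sequence of 1 B6 site is not reported here. Windows, lists and tests were chosen with earlier results of these data known, and the code was tested on simulated intervals. Alternatives covered the window, the reference region, single chromosomes, widths, overlap rules and, chosen after seeing the data, GC groups, width groups and the first 100 kb.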

Additional observations from a re-analysis of the deposited data

Results flagged for a closer look

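Among 14 contrasts between the strains, 2 passed the adjusted threshold. The change in the share of DMC1 intervals with PRDM9 was -11.96 points in RJ2 and -6.01 points in B6, a contrast of -5.95 points (RJ2 minus B6 below 0 on 15 of 19 chromosomes, adjusted p = 0.0379, permutation test), on the scale of percentage points only. The change in the share of strain-specific H3K4me3 intervals with DMC1 was +3.50 points in RJ2 and -6.95 points in B6, a contrast of 10.4 points (above 0 on 13 of 19 chromosomes, adjusted p = 0.0379, permutation test). Neither strain's own change in that share passed the permutation test alone (adjusted p = 0.311 and 0.115). The B6 and RJ2 lists differ in length and in how many PRDM9 intervals they hold, and the part of this in the contrasts was not tested.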

How the results depend on the processing

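Against 13 to 23 Mb as the only rest, the PRDM9 density differences were -0.13 per Mb in RJ2, 0.0053 in B6 and -0.047 in Spo11 KO, that of RJ2-specific H3K4me3 was 0.40, and the DMC1 shares changed by -5.08 points (RJ2, H3K4me3) and -2.54 points (B6, PRDM9) and that of RJ2 DMC1 without other marks by 5.45 points, all no longer past the threshold. B6-specific and common H3K4me3 densities passed with windows of 3 to 23 Mb (-0.76 and -3.98 per Mb) and as log2 ratios (-0.34 and -0.29), and the B6-specific one without chromosome 17 (-0.81). Leaving out 1 chromosome at a time gave -0.81 to -0.45 and -3.62 to -1.97 per Mb for these, and 6.24 to 11.9 points for RJ2 PRDM9 with DMC1. The strain contrast of DMC1 with PRDM9 missed the threshold with windows of 3 to 8 Mb (-6.46 points), 3 to 23 Mb (-3.33), without the distal 10 Mb (-5.32), against 13 to 23 Mb (-4.68), in the widest intervals (-3.56) and by DMC1 midpoint (-5.90), and ranged from -6.66 to -4.81 over chromosomes left out. That of H3K4me3 with DMC1 missed it with windows of 3 to 23 Mb (6.99), against 13 to 23 Mb (7.40), in the widest intervals (8.87) and by midpoint (10.1), and ranged from 9.31 to 11.9. Over 70 results and all settings other than single chromosomes left out, 702 values kept their side of the threshold, 23 lost the call and 9 gained it. Another 2, of results that passed in the main setting, reversed direction. For results that did not pass in the main setting, direction was not compared. No paired analysis was possible because the lists pool the replicates. Without read counts, a missing PRDM9 or H3K4me3 interval may lie under the calling threshold, which was not tested.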
